A study of Homo sapiens with 12 samples.

Results

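Chemokines are small proteins, most of them secreted, that steer migrating leukocytes through receptors coupled to G proteins. The chemokine genes that breast cancer cells can express were followed here as a set of 10 genes, namely CXCL1, CXCL2, CXCL3, CXCL5, CXCL6, IL8 (now called CXCL8), CXCL16, CCL2, CCL20 and CX3CL1. They were chosen by gene symbol among the 51838 genes of the count table, and each symbol matched 1 gene. The choice was made with earlier results of these data known, so the share of these genes that passed is a description. RNA had been sequenced from HCC70 and MDA-MB-231, both human breast cancer lines of the basal-like type, which had been given dexamethasone, a synthetic glucocorticoid, at 100 nM or ethanol as vehicle for 4 h. The groups were HCC70 with dexamethasone, HCC70 with vehicle, MDA-MB-231 with dexamethasone and MDA-MB-231 with vehicle, with 3 libraries each. The stated aim was to find genes under the control of the glucocorticoid receptor and of the transcription factor STAT3.

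HCC70 was grown in RPMI medium and MDA-MB-231 in DMEM, both with serum, so a difference between the lines cannot be told apart from one between the media. Each line stands for 1 tumour. Total gene counts per library ran from 106345287 to 123218973. Whether the 3 libraries of a group are separate cultures is not labelled, and the p-values rest on a spread between libraries that may be technical. FKBP5, a co-chaperone gene induced by the glucocorticoid receptor, rose 6.20-fold with dexamethasone in HCC70 and 19.9-fold in MDA-MB-231. The basal keratin KRT5 averaged 2595 CPM in HCC70 vehicle and 0.804 CPM in MDA-MB-231 vehicle. The other basal markers listed averaged 86.7 and 0.238 CPM (KRT14), 254 and 1.28 CPM (KRT17) and 1.37 and 0.326 CPM (TP63) in these groups. EGFR, the last of that list, averaged 328 and 356 CPM. The mesenchymal filament gene VIM averaged 145 and 2212 CPM. The basal keratins and TP63 were thus low or nearly absent in MDA-MB-231, while EGFR was not. CPM are counts per 1e6 counts of the library after TMM scaling, which assumes that most genes are alike between libraries. Of the leukocyte markers, PTPRC was at or under 0.187 CPM and LYZ at or under 0.0950 CPM in every group mean, while CD14 averaged 42.3 CPM in HCC70 with dexamethasone and 36.4 CPM in HCC70 vehicle. In how RNA levels followed GC content, the MDA-MB-231 library dexamethasone 2 stood apart from its group (Spearman's rho 0.26, against -0.52 and -0.50). Vehicle 1 had the highest value of a spread group (0.68, against 0.17 and -0.23). Both are called below the libraries that stood apart, and results of the 10 genes are given without them where a call changes.

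CXCL1, CXCL2, CXCL3, CXCL5, CXCL6 and IL8 belong to the CXC chemokines that attract neutrophils through CXCR2, and for some of them also CXCR1. CXCL16 and CX3CL1 are made as membrane proteins that carry the chemokine on a stalk and can be shed by the proteases ADAM10 and ADAM17, and their receptors are CXCR6 and CX3CR1. CCL2 attracts monocytes through CCR2, and CCL20 attracts cells that carry CCR6. Many of these genes are known to be switched on by the transcription factor NF-kB, and glucocorticoids are known for lowering inflammatory genes in many cell types. All 10 genes passed the low-count filter (minimum count 10). CXCL5 and CXCL6 passed through HCC70 alone, CCL20 through MDA-MB-231 with dexamethasone alone, and CCL2 through the vehicle groups alone, so for these 4 genes being tested depended on the groups where they were high.

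Promoter sequences from RefSeq (GRCh38.p14) were found for 7 of the 10 genes, and not for CXCL16, CCL2 and CX3CL1. The neutrophil-attracting chemokine genes are all on chromosome 4, and all 6 held the letters GGAATTTCC, a form of the NF-kB site known as kappaB, within the 250 bases before the start. Among 35116 RefSeq promoters searched over the same length on both strands, 0.413% held these letters. The last 150 bases before the start are shown for the 6 genes, 5' to 3' on the gene's strand, because 3 of them rose together with dexamethasone in MDA-MB-231 while the other 3 did not pass there. Capitals mark matches to GGAATTTCC or to a wider kappaB motif, GGG and TTTCC with any 2 bases between them, which overlaps it and was found in 1.73% of promoters. CCL20, whose stretch is not shown, held no GGAATTTCC. It held the wider motif on the strand opposite to its own, from 79 to 70 bases before the start. The windows are chr4:73869243-73869392 on the plus strand for CXCL1, chr4:74099196-74099345 on the minus strand for CXCL2, chr4:74038690-74038839 on the minus strand for CXCL3, chr4:73998678-73998827 on the minus strand for CXCL5, chr4:73836528-73836677 on the plus strand for CXCL6 and chr4:73740419-73740568 on the plus strand for IL8.
CXCL1: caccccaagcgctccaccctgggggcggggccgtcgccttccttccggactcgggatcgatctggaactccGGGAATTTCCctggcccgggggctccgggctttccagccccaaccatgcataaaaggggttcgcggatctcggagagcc
CXCL2: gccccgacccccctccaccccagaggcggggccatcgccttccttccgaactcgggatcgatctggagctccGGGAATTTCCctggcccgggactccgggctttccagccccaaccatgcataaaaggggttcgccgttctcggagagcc
CXCL3: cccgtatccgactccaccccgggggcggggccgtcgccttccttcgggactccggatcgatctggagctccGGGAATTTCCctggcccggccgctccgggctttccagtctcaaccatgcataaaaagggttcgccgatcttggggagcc
CXCL5: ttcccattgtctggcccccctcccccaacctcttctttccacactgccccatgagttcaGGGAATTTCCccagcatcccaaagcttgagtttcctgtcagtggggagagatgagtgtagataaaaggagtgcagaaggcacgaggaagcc
CXCL6: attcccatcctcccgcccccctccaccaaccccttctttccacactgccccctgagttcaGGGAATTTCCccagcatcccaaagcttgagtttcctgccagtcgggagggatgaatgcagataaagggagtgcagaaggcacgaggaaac
IL8: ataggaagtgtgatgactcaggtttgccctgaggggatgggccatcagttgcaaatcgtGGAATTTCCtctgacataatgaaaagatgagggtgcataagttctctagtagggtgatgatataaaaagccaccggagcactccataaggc

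The CXCL1, CXCL2 and CXCL3 stretches were 86.1% to 88.7% identical to each other in pairwise alignments, and CXCL5 and CXCL6 were 89.4% identical to each other. CXCL1 and CXCL5 were 50.6% identical. IL8 was 43.6% to 47.5% identical to the other 5. IL8 alone of the 7 held an AP-1 motif, searched as TGANTCA, which 6.57% of promoters held. The full palindrome of the glucocorticoid receptor, searched as AGAACA and TGTTCT with any 3 bases between them, was in none of the 7 windows and in 0.00285% of promoters. TGTTCT by itself was in CXCL2 alone, as AGAACA on the strand read and upstream of the stretch shown, and in 12.4% of promoters. These matches describe the letters in these windows only.

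In vehicle, HCC70 held far more chemokine RNA than MDA-MB-231. The 10 genes summed to 269 ± 9.24 CPM in HCC70 and 13.1 ± 1.61 CPM in MDA-MB-231 (SD, n = 3 each), and CXCL16 and CX3CL1 made up nearly all of it in HCC70. In bulk RNA, fewer expressing cells and less RNA per cell cannot be told apart. HCC70 was higher for 8 of the 10 genes and lower for none (edgeR quasi-likelihood test, adjusted p under 0.05), while 79.2% of all 28141 genes tested passed, with 39.2% of all genes tested being higher in HCC70. The median log2 difference, HCC70 over MDA-MB-231, was 1.91 over the 10 genes and -0.03 over all genes tested.

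CXCL16 measured 142, 156 and 148 CPM in the HCC70 vehicle libraries, against 5.74, 5.16 and 4.30 CPM in the MDA-MB-231 vehicle libraries. The groups were far apart, 29.3-fold (log2 difference 4.87 ± 0.11, SE; adjusted p = 3.19e-14, edgeR). About 3.04% of the CXCL16 exon bases overlap MED11 on the other strand, and the libraries were not stranded. CX3CL1 measured 109, 109 and 120.2 CPM in HCC70, against 6.72, 5.51 and 4.19 CPM in MDA-MB-231, a 20.6-fold difference (log2 4.37 ± 0.14, adjusted p = 1.24e-11, edgeR). All HCC70 libraries again lay above all MDA-MB-231 libraries.

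The neutrophil-attracting genes differed between the lines by very different amounts. CXCL5 had 222, 239 and 204 counts in HCC70 vehicle, against 1, 0 and 1 counts in MDA-MB-231 vehicle. The ratio was 347, with an exact 95% counting interval of 95.7 to 2870.4 that covers counting error only. This interval, like those below, takes each count as a separate fragment, which is not known here. CXCL6 had 24, 9 and 20 counts in HCC70 and 0 counts in all 3 MDA-MB-231 vehicle libraries, which makes it at least 18.4-fold higher in HCC70 when 3 counts over the group are taken as the limit of a count of 0. An exact 95% counting interval for this ratio, which also takes in the counting error of HCC70, begins at 14.5. CXCL1 measured 1.65, 1.37 and 1.14 CPM in HCC70, against 0.192, 0.172 and 0.201 CPM in MDA-MB-231 (7.34-fold, adjusted p = 7.71e-08, edgeR). For these genes HCC70 lay above MDA-MB-231 in every library.

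IL8, CXCL2 and CXCL3 were closer. IL8 measured 2.15, 1.97 and 2.38 CPM in HCC70 and 0.945, 1.12 and 1.67 CPM in MDA-MB-231 (1.74-fold, adjusted p = 0.00486, edgeR). CXCL2 averaged 1.14 ± 0.271 CPM in HCC70 and 0.591 ± 0.117 CPM in MDA-MB-231 (SD, n = 3 each), a 1.92-fold difference (adjusted p = 0.000530, edgeR). CXCL3 averaged 0.688 ± 0.184 and 0.401 ± 0.154 CPM in these groups, and its call was marginal (adjusted p = 0.0460, edgeR), passing in 10 of 23 alternatives. It ended with upper quartile scaling (adjusted p = 0.0756), library size only (0.0707) and no low-count filter (0.0584), and without both MDA-MB-231 libraries that stood apart (0.164). It also ended without single libraries, namely HCC70 dexamethasone 1 (0.0551), HCC70 vehicle 1 (0.0502) or 2 (0.187), MDA-MB-231 dexamethasone 1 (0.0561) or 2 (0.0540), or MDA-MB-231 vehicle 1 (0.165) or 2 (0.120). CCL2 averaged 0.104 ± 0.0246 CPM in HCC70 and 0.0954 ± 0.0684 CPM in MDA-MB-231, and CCL20 had 4 counts in all in HCC70 and 5 in MDA-MB-231, so neither passed (adjusted p = 0.834 and 0.864, edgeR).

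Levels of different genes were set side by side as CPM per kb of exons, with lengths from GENCODE 29 that may differ from the gene models used for counting. In HCC70 vehicle CXCL16 stood highest at 53.2 ± 2.59 and CX3CL1 next at 18.9 ± 1.06 CPM per kb (SD, n = 3). CXCL1 at 1.07, IL8 at 0.953, CXCL2 at 0.761 and CXCL5 at 0.757 CPM per kb followed, and each of these overlapped its neighbour in the order. CXCL3 came below them at 0.310, then CXCL6 at 0.0693 and CCL2 at 0.0522, which overlapped each other, and CCL20 at 0.00740 CPM per kb.

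In MDA-MB-231 vehicle the order also began with CXCL16 at 1.81 ± 0.259 and CX3CL1 at 0.915 ± 0.212 CPM per kb, but over a much narrower span. CX3CL1 overlapped IL8 at 0.549, IL8 overlapped CXCL2 at 0.394, and CXCL3 at 0.181 overlapped CXCL1 at 0.145 CPM per kb. CCL2 at 0.0480, CCL20 at 0.00828 and CXCL5 at 0.00225 CPM per kb stood at the low end, with CXCL6 at 0.

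**Figure D1:**
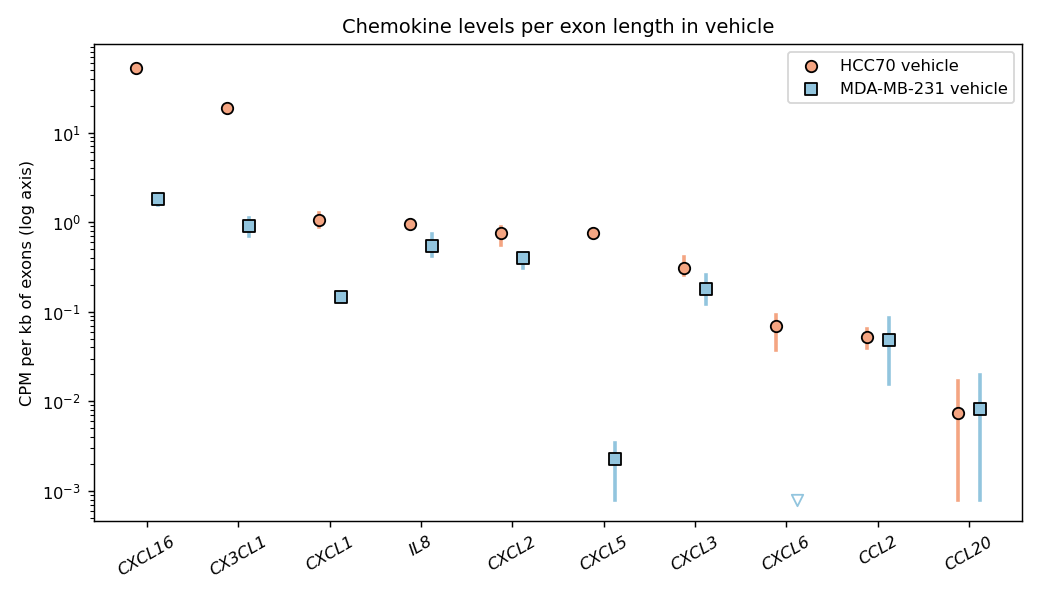
CPM per kb of exons (log axis) of the 10 chemokine genes in vehicle, for HCC70 (circles) and MDA-MB-231 (squares), ordered by the HCC70 level. Symbols are means of 3 libraries, bars run from the lowest to the highest library and stop at the lower edge of the plotted range where a library had 0 counts, and an open triangle marks a gene at 0; CXCL16 stands at 53.2 in HCC70 and 1.81 in MDA-MB-231.

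In MDA-MB-231 dexamethasone moved chemokine genes in both directions. CXCL1, CXCL2, CXCL3 and CCL20 rose, and CXCL16, CX3CL1 and CCL2 fell, so 7 of the 10 genes passed the edgeR test, 4 upward and 3 downward. Among these, CCL20 and CCL2 were tested only through groups where they were high, so their place in this count depends on those groups. The count was the same with no low-count filter. Of all genes tested 14.6% passed, 6.65% up and 7.96% down. The median log2 change was 0.40 over the 10 genes and -0.01 over all genes.

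CXCL2 rose most among the CXC chemokines. It measured 2.95, 2.87 and 3.16 CPM with dexamethasone, against 0.661, 0.656 and 0.455 CPM in vehicle. The treated libraries lay close together and well above the vehicle libraries, a 5.05-fold rise (log2 fold change 2.34 ± 0.19, SE; adjusted p = 9.89e-07, edgeR). CXCL1 measured 0.459, 0.670 and 0.379 CPM with dexamethasone, against 0.192, 0.172 and 0.201 CPM in vehicle, a 2.66-fold rise (log2 1.41 ± 0.27, adjusted p = 0.00240, edgeR). The highest treated library, dexamethasone 2, is one of those that stood apart; without it and vehicle 1 the adjusted p was 0.0120.

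CXCL3 measured 1.04, 1.08 and 0.674 CPM with dexamethasone, against 0.268, 0.367 and 0.569 CPM in vehicle, a 2.33-fold rise (log2 1.22 ± 0.32, adjusted p = 0.0242, edgeR). The groups did not overlap, but the call ended without dexamethasone 1 (adjusted p = 0.0900), vehicle 1 (0.0803) or vehicle 2 (0.0849), and without vehicle 1 and dexamethasone 2 together (0.102). CXCL1, CXCL2 and CXCL3 are close paralogs. Of the 50-base stretches in their GENCODE 29 transcripts, 4.81% of CXCL1, 12.5% of CXCL2 and 6.01% of CXCL3 also occur in another gene, so a part of their reads could have been counted for the wrong one.

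The other neutrophil-attracting genes did not pass in MDA-MB-231. IL8 measured 1.23, 1.20 and 0.720 CPM with dexamethasone, against 0.945, 1.12 and 1.67 CPM in vehicle, with overlapping groups (log2 fold change -0.25 ± 0.23, adjusted p = 0.516, edgeR). CXCL5 had 0, 3 and 1 counts with dexamethasone and 1, 0 and 1 in vehicle. CXCL6 had 0 counts in all 6 libraries, which allows up to 0.00782 CPM over the dexamethasone group and 0.00829 CPM over the vehicle group. The kappaB letters shown above were thus shared by genes that rose, a gene that did not pass and genes that were at or near 0.

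The membrane-bound chemokines fell in MDA-MB-231. CX3CL1 measured 0.773, 1.01 and 0.859 CPM with dexamethasone, against 6.72, 5.51 and 4.19 CPM in vehicle, a 6.22-fold fall (log2 -2.64 ± 0.16, adjusted p = 1.40e-07, edgeR). CXCL16 measured 3.28, 3.84 and 3.20 CPM with dexamethasone, against 5.74, 5.16 and 4.30 CPM in vehicle, a 1.47-fold fall (log2 -0.56 ± 0.10, adjusted p = 0.00197, edgeR). In both genes every treated library lay below every vehicle library. Both transcripts are GC-rich, at 55.4% for CX3CL1 and 56.0% for CXCL16. The deviation of a library's log2 CPM from its line's mean correlated with GC content across 14596 genes by Spearman's rho of -0.52 and -0.50 in dexamethasone 1 and 3 and 0.26 in dexamethasone 2, and 0.68, 0.17 and -0.23 in vehicle 1, 2 and 3. With GC and length trends removed, the log2 fold changes were -2.54 for CX3CL1 (adjusted p = 2.88e-09, edgeR) and -0.52 for CXCL16 (adjusted p = 0.000234).

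The CC chemokines moved in opposite directions from very low levels. CCL20 had 40, 28 and 16 counts with dexamethasone, against 1, 4 and 0 counts in vehicle. All treated libraries were higher (log2 3.89 ± 0.73, adjusted p = 0.00221, edgeR), and the ratio of summed counts was 15.8, with a counting interval of 6.53 to 50.1. CCL2 had 2, 0 and 0 counts with dexamethasone, against 20, 4 and 10 counts in vehicle, so summed counts were lower by a ratio of 18.0, with a counting interval of 4.62 to 155 (adjusted p = 0.0102, edgeR). The CCL2 call ended without dexamethasone 3 (adjusted p = 0.0501) or vehicle 1 (0.0527), and without vehicle 1 and dexamethasone 2 together (0.0789).

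**Figure D2:**
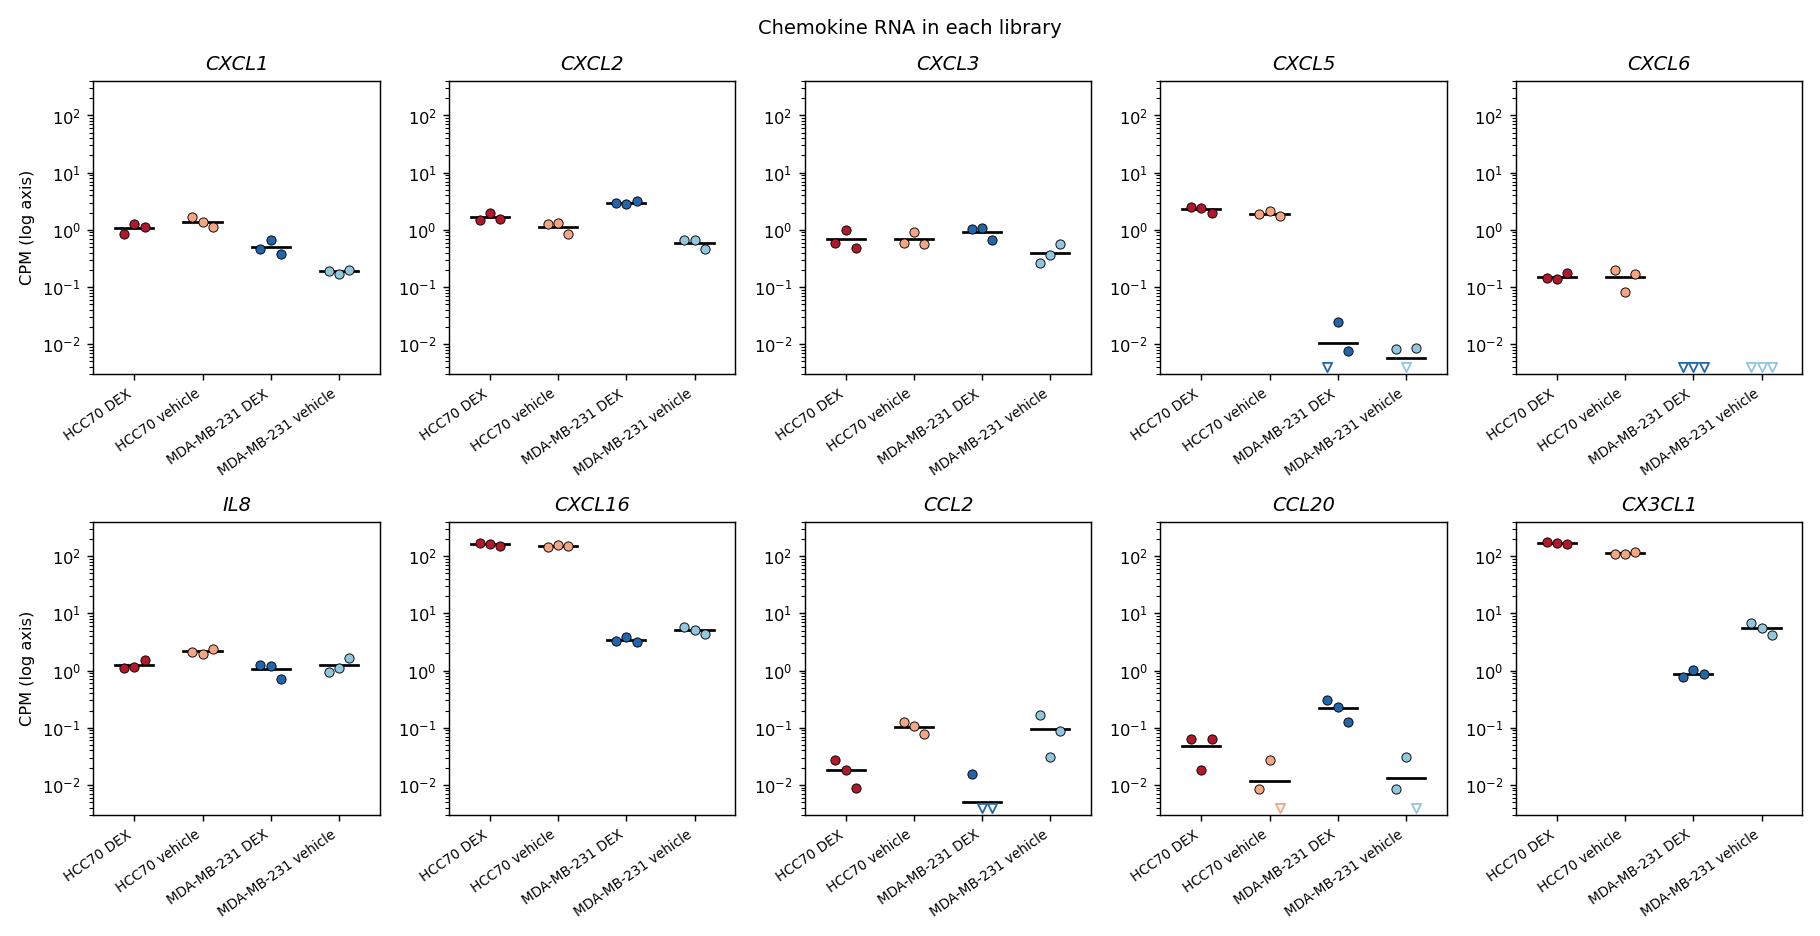
CPM (log axis) of each chemokine gene in each of the 12 libraries, by line and treatment (DEX, dexamethasone). Filled points are libraries, bars are group means including zeros, and open triangles at the lower edge are libraries with 0 counts; CX3CL1 sits between 0.773 and 1.01 in the MDA-MB-231 dexamethasone libraries, below the vehicle libraries at 4.19 to 6.72.

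In HCC70 1 of the 10 genes passed with dexamethasone, and a gene that did not pass is not shown to be unchanged. CX3CL1 measured 176, 168 and 166 CPM with dexamethasone, against 109, 109 and 120.2 CPM in vehicle. Each treated library was above each vehicle library, a 1.51-fold rise (log2 fold change 0.59 ± 0.12, SE; adjusted p = 0.0192, edgeR). Of all genes tested 3.96% passed in HCC70, 2.55% up and 1.40% down. These counts rest on a spread shared by both lines. With each line fitted alone, 3 of the 10 genes passed in HCC70 and 6 in MDA-MB-231. Over all genes 4828 then passed in HCC70 and 2116 in MDA-MB-231, which reverses the order of the lines. The median log2 change was 0.07 over the 10 genes and -0.01 over all genes.

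The CX3CL1 call in HCC70 ended when some single HCC70 libraries were left out, namely dexamethasone 1 (adjusted p = 0.0634), dexamethasone 2 (0.0669), dexamethasone 3 (0.0620), vehicle 1 (0.107) or vehicle 2 (0.0945), although the log2 fold change stayed at 0.56 to 0.61. The HCC70 libraries differed in their GC trends along with treatment, with Spearman's rho of 0.50, 0.39 and 0.36 in dexamethasone 1 to 3 and -0.61, -0.32 and -0.15 in vehicle 1 to 3. With GC and length trends removed, the CX3CL1 log2 fold change was 0.51 (adjusted p = 0.00106, edgeR). The call passed in 19 of 25 alternatives, among them HCC70 fitted alone (adjusted p = 9.17e-07, edgeR) and DESeq2 (0.000267). Besides the libraries left out, it also ended with the replicate block (0.0558, edgeR).

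CXCL16, the highest of the chemokines in HCC70 per kb of exons, measured 173, 165 and 152 CPM with dexamethasone, against 142, 156 and 148 CPM in vehicle. The groups overlapped and the difference did not pass (log2 0.14 ± 0.092, adjusted p = 0.459, edgeR). IL8 measured 1.13, 1.15 and 1.51 CPM with dexamethasone, against 2.15, 1.97 and 2.38 CPM in vehicle. Its treated libraries were all lower, but the difference did not pass over all genes (log2 -0.78 ± 0.22, adjusted p = 0.0795, edgeR). It passed in 7 of 24 alternatives. These included the HCC70 libraries fitted alone (adjusted p = 0.000798, edgeR), DESeq2 (0.0161) and both MDA-MB-231 libraries that stood apart left out (0.0196, edgeR). The adjusted p was 0.0887 with GC and length trends removed, 0.231 with the replicate block and up to 0.255 with libraries left out (edgeR). The IL8 transcript is poor in GC, at 33.4%.

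CXCL2 measured 1.49, 1.95 and 1.53 CPM with dexamethasone in HCC70, against 1.25, 1.34 and 0.833 CPM in vehicle. The groups did not overlap, and the difference did not pass (log2 0.54 ± 0.18, adjusted p = 0.134, edgeR). It passed in 2 of 24 alternatives, with GC and length trends removed (adjusted p = 0.0366) and when HCC70 was fitted alone (0.0401). CXCL1 averaged 1.08 ± 0.216 CPM with dexamethasone and 1.39 ± 0.256 CPM in vehicle (SD, n = 3 each), with overlapping groups and adjusted p = 0.376 (edgeR). CXCL3, CXCL5 and CXCL6 also overlapped between the groups, with log2 fold changes of -0.00 ± 0.32, 0.25 ± 0.18 and 0.01 ± 0.42.

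CCL2 had 3, 2 and 1 counts with dexamethasone in HCC70, against 15, 12 and 9 counts in vehicle. The ratio of summed counts, vehicle over dexamethasone, was 5.78, with a counting interval of 2.41 to 16.8, and the difference did not pass (adjusted p = 0.0956, edgeR). It passed in 1 of 22 alternatives, when both MDA-MB-231 libraries that stood apart were left out (adjusted p = 0.0309). CCL20 had 7, 2 and 7 counts with dexamethasone, against 1, 3 and 0 in vehicle (adjusted p = 0.297, edgeR). Both CC chemokines were thus at a depth where a few counts decide the value.

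**Figure D3:**
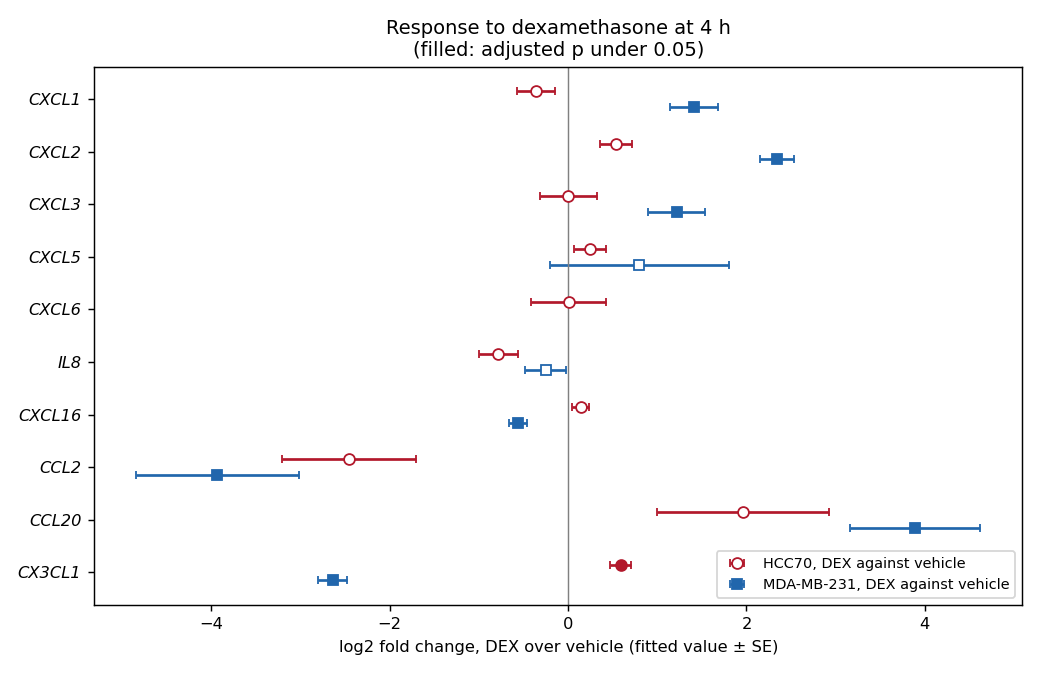
Log2 fold change of each chemokine gene, dexamethasone over vehicle, in HCC70 (circles) and MDA-MB-231 (squares), as the fitted value with its SE; filled symbols passed adjusted p under 0.05. CX3CL1 lies at 0.59 in HCC70 and -2.64 in MDA-MB-231, CXCL6 has no value in MDA-MB-231, where it had 0 counts, and the CCL2 and CXCL5 values in MDA-MB-231 rest on 2 and 4 counts in the treated group.

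The difference between the responses, HCC70 minus MDA-MB-231, was tested directly in the same model. It passed for 4 of the 10 genes, 2 with a higher and 2 with a lower value in HCC70, against 12.1% of all genes tested, 6.96% higher and 5.09% lower. CX3CL1 differed most, by 3.23 ± 0.20 on the log2 scale (adjusted p = 6.93e-07, edgeR), since it rose in HCC70 and fell in MDA-MB-231. CXCL16 differed by 0.70 ± 0.14 (adjusted p = 0.00602). CXCL2 differed by -1.80 ± 0.26 (adjusted p = 0.000597) and CXCL1 by -1.77 ± 0.34 (adjusted p = 0.00462), the response being larger in MDA-MB-231. CXCL3 differed by -1.22 ± 0.45 and IL8 by -0.53 ± 0.32, and neither passed (adjusted p = 0.0923 and 0.292, edgeR).

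Other genes were compared with IL8, CXCL1 and CX3CL1 by the Pearson correlation of log2 CPM over the 12 libraries, after each line's mean was subtracted, among 15383 genes. This is a description only, and the libraries share treatment and depth. CX3CL1 was most like KSR1, a scaffold of the MAP kinase pathway (r = 0.997), SMAD3, a mediator of TGF-beta signals (r = 0.995), and CLDN4, a tight junction protein (r = 0.994). KSR1 and CLDN4 rose in HCC70 (log2 0.33 and 0.45, adjusted p = 0.0467 and 0.0356, edgeR) and fell in MDA-MB-231 (log2 -1.29 and -1.46, adjusted p = 1.47e-07 and 7.22e-07). SMAD3 fell in MDA-MB-231 (log2 -0.80, adjusted p = 3.67e-06) and had a log2 fold change of 0.20 in HCC70 that did not pass (adjusted p = 0.168, edgeR). CXCL1 was most like NDUFB8, a subunit of respiratory complex I (r = 0.975), and IL8 most like CCDC144A (r = 0.916), and neither of these genes passed in either line. EMP2, also like CXCL1 (r = 0.929), rose in MDA-MB-231 (log2 0.50, adjusted p = 4.27e-05, edgeR) and did not pass in HCC70 (adjusted p = 0.524). The remaining genes most like CXCL1 or IL8, namely RP11-411B6.6, RP11-592B15.4 and TMEM170A, did not pass in either line.

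Among 14 other chemokine ligands with enough counts to be tested, of 38 in the table, 0 passed in HCC70 with edgeR at adjusted p under 0.05, 1 had an unadjusted p under 0.05, 0 passed with limma voom, and 0 passed among the 5 for which DESeq2 gave an adjusted p. Over all genes tested, 3.96% passed in HCC70 and 14.6% in MDA-MB-231, and 21.4% of these ligands passed in MDA-MB-231. This list and those below were chosen with earlier results of these data known, so their shares are descriptions. There PF4 rose and CCL3L1 and CCL4L2 fell, which were named after their values were seen. PF4 had 21, 16 and 20 counts with dexamethasone and 1, 1 and 0 in vehicle, and it passed the low-count filter through the treated MDA-MB-231 libraries alone. CCL3L1 and CCL4L2 stand for near-identical gene copies, so their values are uncertain. Their counts moved together. In MDA-MB-231 CCL3L1 had 11, 15 and 6 counts with dexamethasone and 24, 31 and 21 in vehicle. CCL4L2 had 12, 20 and 8 counts with dexamethasone and 32, 38 and 28 in vehicle. Their 2 falls may therefore be 1 result, and the share of 21.4% counts both. The ligands at the highest levels were CXCL17, a mucosal chemokine, at 33.4 ± 1.31 CPM with dexamethasone and 37.2 ± 0.955 CPM in vehicle in HCC70 (adjusted p = 0.298, edgeR), and CCL28, an epithelial chemokine, at 20.5 and 21.0 CPM there (adjusted p = 0.841).

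The signalling receptors of the 10 chemokines had few counts, apart from CXCR6. CXCR1 and CXCR2 had 0 to 2 counts in any library, CX3CR1 0 to 4, CCR6 0 to 8 and CCR2 0 to 14. CXCR6, the receptor of CXCL16, averaged 1.07 CPM with dexamethasone and 0.883 CPM in vehicle in HCC70, and 0.926 and 1.33 CPM in MDA-MB-231, with adjusted p = 0.549 and 0.136 (edgeR). It was named after its values were seen. Overlap of CXCR6 with other genes was not checked, and the libraries were not stranded, so its counts may not all belong to it. CCBP2, a scavenger receptor that takes up CCL2 and other inflammatory CC chemokines, averaged 24.0 CPM with dexamethasone and 24.1 CPM in vehicle in HCC70 (adjusted p = 1.00, edgeR), and 0.0683 and 0.0648 CPM in MDA-MB-231. Of 11 receptors tested, 0 passed in HCC70 with edgeR, where 2 had an unadjusted p under 0.05, or with limma voom, and 0 of the 7 for which DESeq2 gave an adjusted p. In MDA-MB-231, where 36.4% of the receptors tested and 14.6% of all genes tested passed, CCRL2, CXCR4 and CCR1 fell and CXCR5 rose. In HCC70 the share of all genes was 3.96%. CCRL2, an atypical receptor that binds chemerin, averaged 9.38 ± 1.10 CPM with dexamethasone and 25.2 ± 0.925 CPM in vehicle there (2.68-fold fall, adjusted p = 5.65e-06, edgeR) and had 0 counts in all HCC70 libraries. CXCR4, the receptor of CXCL12, fell 1.56-fold (adjusted p = 0.0117), and CCR1, chosen after its values were seen, had 2, 2 and 0 counts with dexamethasone and 21, 15 and 12 in vehicle, and it passed the low-count filter through those vehicle libraries alone. For CXCR5, 88.6% of exon bases overlap BCL9L, so its rise cannot be assigned to it.

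Several regulators of mRNA decay rose in both lines. Of 10 genes that control the decay of chemokine and other short-lived mRNAs, 3 rose in HCC70 and 4 in MDA-MB-231, and none fell; the median log2 change was 0.13 and 0.11. Of all genes tested 3.96% and 14.6% passed in these lines. ZFP36, which encodes tristetraprolin, a protein that binds AU-rich mRNAs and promotes their decay, averaged 47.5 CPM with dexamethasone and 25.3 CPM in vehicle in HCC70 (1.88-fold, adjusted p = 7.80e-06, edgeR). It averaged 29.0 and 8.42 CPM in MDA-MB-231 (3.44-fold, adjusted p = 2.01e-09). DUSP1, a phosphatase that inactivates p38 MAP kinase, rose 2.48-fold in HCC70 and 9.53-fold in MDA-MB-231. ZFP36L2, a relative of ZFP36, rose 2.07-fold and 2.37-fold in these lines, and ZC3H12A, a ribonuclease that degrades inflammatory mRNAs, rose 2.21-fold in MDA-MB-231 (adjusted p = 1.21e-05).

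Of 24 NF-kB signalling genes, 2 rose and 1 fell in HCC70 and 2 rose and 9 fell in MDA-MB-231. The median log2 changes were -0.00 and -0.24. In HCC70 the call of IKBKB ended with DESeq2 size factors in edgeR, upper quartile scaling and library size only. The call of TNFAIP3 there ended with limma voom and with the GC and length offset. With that offset 2 rose and 3 fell in HCC70, and BCL3, MAP3K14 and RELB were among the genes called. The list's shares were 12.5% in HCC70 and 45.8% in MDA-MB-231, against the same 3.96% and 14.6%. They describe a list chosen with earlier results of these data known. NFKBIA, the inhibitor that holds NF-kB in the cytoplasm, rose 1.90-fold in HCC70 and 2.36-fold in MDA-MB-231. TNFAIP3, an enzyme that shuts down NF-kB signalling, was lower in HCC70 at 2.42 CPM with dexamethasone and 3.18 CPM in vehicle (adjusted p = 0.0484, edgeR), and rose 1.74-fold in MDA-MB-231 (adjusted p = 3.94e-05). In MDA-MB-231 NFKBIE, another inhibitor, fell 2.35-fold, and TRAF1, an adaptor of tumour necrosis factor receptors, fell 2.15-fold.

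Of 14 upstream cytokines and receptors, 0 rose and 1 fell in HCC70 and 4 rose and 3 fell in MDA-MB-231, which are 7.14% and 50.0% of the list against 3.96% and 14.6% of all genes. The lists were not matched in level to all genes tested, which include genes with few counts. IL1R1, the interleukin-1 receptor, rose 4.52-fold in MDA-MB-231 and TLR2, a sensor of bacterial lipoproteins, 4.29-fold, while LIF, which signals through STAT3, fell 2.04-fold. The gene that fell in HCC70 was IL6, named after its values were seen, with 0, 1 and 0 counts with dexamethasone and 8, 2 and 12 in vehicle, and 20.7% of its exon bases overlap other genes. Of 10 shedding and cleavage genes, 0 passed in HCC70 with edgeR, where 2 had an unadjusted p under 0.05, 2 passed with DESeq2 and 1 with limma voom, and 1 rose and 2 fell in MDA-MB-231, where 14.6% of all genes passed. ADAM10, a protease that sheds CXCL16 and CX3CL1, averaged 197 CPM with dexamethasone and 214 CPM in vehicle in HCC70 (adjusted p = 0.471, edgeR).

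**Figure D4:**
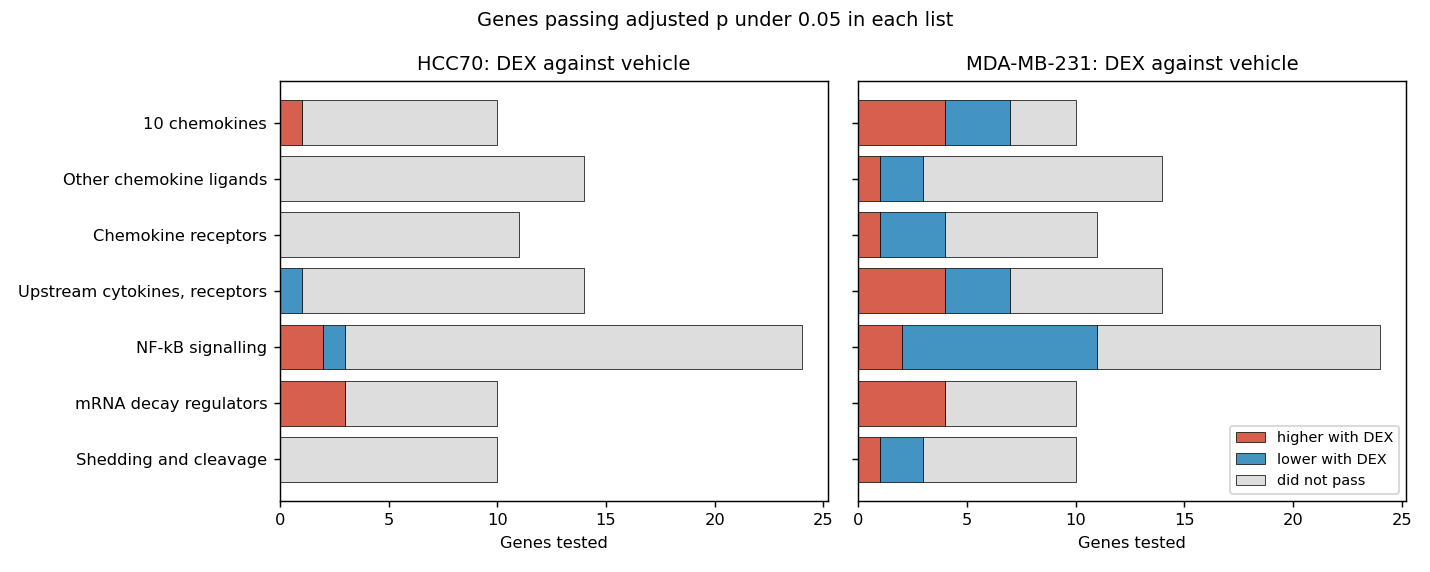
Number of genes tested in each list (x axis) that were higher with dexamethasone, lower or did not pass (adjusted p under 0.05), in HCC70 (left) and MDA-MB-231 (right). Of the 10 chemokines, 1 was higher in HCC70, and 4 were higher and 3 lower in MDA-MB-231.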

How the data were processed

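Counts per gene were read from the deposited table, which holds whole-number read counts that the authors did not scale between libraries. Libraries were polyA-selected, transposase-made and not stranded, with paired reads of 50 bases, per the labels' protocols. TopHat 1.4.1, Cufflinks 1.3.0, bedtools and the build hg19 are named per the submitters' processing notes; which tool made the counts, and whether both mates were counted, is not given in the sources used here. All 12 columns matched a library by title and 0 were left unused.

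Counts were filtered with filterByExpr (minimum count 10), which left 28141 genes, and scaled by TMM in edgeR 4.0.16 (R 4.3.3). A robust quasi-likelihood model, with 1 mean for each group over all 12 libraries, was tested two-sided, with Benjamini-Hochberg adjustment over all genes and a threshold of 0.05. CPM use the TMM-scaled library sizes. Depth of 106345287 to 123218973 counts per library makes 3 counts over a group equal to 0.00782 to 0.00898 CPM. Counting intervals and this limit cover counting error only and take each count as a separate fragment. If both mates of a pair were counted, they would be too narrow. Whether same-numbered libraries are paired is not labelled, and a replicate block was run as an alternative. The scripts were tested on simulated counts.

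The 10 members and the other lists were chosen with earlier results of these data known. Named genes were all 10 members, up to 4 passing genes per list and treatment comparison at a mean log2 CPM of 0 or above (the 2 of highest level where none passed), and the 3 genes most like IL8, CXCL1 and CX3CL1; not every gene under this rule is described. Sequences came from RefSeq, lengths and GC content from GENCODE 29, on another build than the counts, so no coordinates are given for the counted genes. Alternatives were other scalings, filters and tests (DESeq2 1.42.0, limma 3.58.1 with voom), no robust fit, a replicate block, a GC and length offset, each line alone and libraries left out.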

Additional observations from a re-analysis of the deposited data

Results flagged for a closer look

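The response to dexamethasone differed between HCC70 and MDA-MB-231 for 4 chemokine genes in the test of the difference itself (HCC70 minus MDA-MB-231, log2 scale, edgeR quasi-likelihood, adjusted p under 0.05). The difference was 3.23 for CX3CL1, 0.70 for CXCL16, -1.80 for CXCL2 and -1.77 for CXCL1. CX3CL1 was higher in 3 of 3 treated libraries in HCC70 and lower in 3 of 3 in MDA-MB-231. Over the alternatives these differences ran from 3.04 to 3.39 for CX3CL1, 0.58 to 0.80 for CXCL16, -1.98 to -1.47 for CXCL2 and -1.93 to -1.43 for CXCL1, and each passed in every alternative that tested the gene.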

How the results depend on the processing

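In MDA-MB-231, CXCL1, CXCL2, CCL20, CXCL16 and CX3CL1 passed under every alternative that tested them, and CXCL3 in 20 of 24 and CCL2 in 19 of 22; in HCC70, CX3CL1 passed in 19 of 25. Of all results of single genes under an alternative, 827 kept direction and side of the threshold, 27 lost the call, 13 gained one and 23 changed sign. The count of chemokines called in HCC70 was 1, against 2 with library size only, the DESeq2 Wald test or the GC and length offset, 3 with each line fitted alone and 0 with the replicate block, and it ran from 0 to 3 with libraries left out. Under the strict low-count filter only 2 of the 10 genes were tested, and 2 passed in each of MDA-MB-231, the difference of the responses and the vehicle comparison, against 7, 4 and 8; counts with libraries left out were 5 to 7, 4 to 5 and 7 to 8. Over all genes, 1114 passed in HCC70, against 1679 with DESeq2, 481 with the replicate block, 1866 with the GC and length offset, 4828 with each line fitted alone, 510 to 1775 with 1 library left out (510 to 610 without dexamethasone 1, 2 or 3 or vehicle 1 or 2 of HCC70, 1775 without MDA-MB-231 vehicle 1) and 3867 without both MDA-MB-231 libraries that stood apart. In MDA-MB-231 4110 passed, against 2551 with the replicate block, 2116 with that line alone and 2424 to 6452 with libraries left out, namely 2424, 6452 and 2463 without dexamethasone 1, 2 and 3. For the difference of the responses 3391 passed, against 1480 with the replicate block, 1614 to 2144 without dexamethasone 1, 2 or 3 or vehicle 1 or 2 of HCC70, 1827, 6259 and 1755 without dexamethasone 1, 2 and 3 of MDA-MB-231, 5789 without its vehicle 3 and 6206 with both MDA-MB-231 libraries that stood apart left out. For the vehicle comparison 22294 passed, against 11980 with the strict filter and 21711 to 22757 with libraries left out. The cause of these changes was not tested, apart from the fewer genes that the strict filter leaves. With library size only, 552 genes rose and 762 fell in HCC70, against 719 and 395; with the strict filter 607 rose and 565 fell. For the difference of the responses these splits were 1766 higher and 2498 lower with library size only, which moved the median of all genes to -0.13, and 1929 and 2251 with the strict filter, against 1960 and 1431.

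Sign changes came from values near 0 or from counts of a few. In HCC70 CXCL6 was at -0.01 with upper quartile scaling and -0.08 with library size only, and -0.29 to 0.26 over all alternatives, and CXCL3 at 0.00 with no filter, 0.07 with the GC and length offset and 0.04 with that offset and the replicate block, and -0.36 to 0.23 over all. With libraries left out, the CXCL6 values that changed sign were -0.12 and -0.29 and those of CXCL3 0.10, 0.19 and 0.23. In MDA-MB-231 CXCL5 was at -0.40 without dexamethasone 2 and -0.07 without that library and vehicle 1, its difference of responses then being 0.65 and 0.31, and with single libraries left out these ran from -0.40 to 1.36 and from -1.11 to 0.65, and IL8 was at 0.02 without vehicle 3. In the vehicle comparison CCL2 was at -0.44 with the replicate block, -0.37 with block and offset, and -0.30 to 0.80 with a library left out (-0.03 without HCC70 vehicle 1); CCL20 was at 0.05 with the offset, 0.04 with block and offset, and -1.48 to 1.24 with a library left out (0.32 without HCC70 vehicle 3). As deviations from their group means, same-numbered libraries correlated by -0.16, 0.07 and 0.01 in HCC70 and -0.48, -0.20 and 0.24 in MDA-MB-231. Libraries also differed in their GC trends, so these values do not settle whether same-numbered libraries are paired. With the replicate block the adjusted p of CX3CL1 in HCC70 was 0.0558, and in the vehicle comparison those of CXCL3 and IL8 were 0.195 and 0.103. DESeq2 gave no adjusted p for CCL2, CCL20 and CXCL6 in the treatment comparisons. Depth limits CCL2 and CCL20 everywhere and CXCL5 and CXCL6 in MDA-MB-231.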

Other observations

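Some chemokine ligands and receptors outside the 10 genes also differed between the lines in vehicle. Of 14 other ligands tested 57.1% passed, 7 higher and 1 lower in HCC70. Of 11 receptors tested 63.6% passed, 2 higher and 5 lower. Both shares were below the 79.2% of all genes tested. CXCL17 averaged 37.2 CPM in HCC70 and had 0 counts in the MDA-MB-231 vehicle libraries, and CCL22, which attracts cells that carry CCR4, averaged 7.75 and 0.00292 CPM in these groups. CCBP2 averaged 24.1 CPM in HCC70 and 0.0648 CPM in MDA-MB-231, with 25.2% of its exon bases overlapping other genes. In the other direction CCRL2 had 0 counts in HCC70 vehicle and averaged 25.2 CPM in MDA-MB-231 vehicle. Outside the ligand and receptor lists, TIMP3, an inhibitor of ADAM17, averaged 0.0577 CPM in HCC70 and 374 CPM in MDA-MB-231. TNFRSF1B, a receptor of tumour necrosis factor, averaged 0.213 and 21.6 CPM. All genes named in this paragraph passed the edgeR test, as did 79.2% of all genes tested, and line and medium cannot be told apart.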
